A study of Mus musculus with 6 samples.

Results

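The 6 genes of the interleukin-6 (IL-6) cytokine family were followed in mouse embryo fibroblasts given a bacterial stimulus with or without an earlier heat shock. They are 3 secreted ligands (Il6, Lif and Il11) and 3 signal-transducing receptor chains (Il6st, Osmr and Lifr). All probe sets carrying 1 of these symbols and no other were taken, which gave 14 of the 45101 probe sets on the array and 6 of the 18194 genes named on it. The brightest probe set of each gene gives its value and the others serve as a check. The RNA came from 2 numbered cultures of fibroblasts from embryonic day 15.5 embryos of the ICR strain, and each culture was measured in 3 groups, which made 6 arrays. The cultures were told apart by the number in the sample titles, and the labels do not say how many embryos gave each culture. Control cells stayed at 37 °C with no agent. LPS cells received E. coli lipopolysaccharide, a bacterial outer membrane glycolipid, at 1 μg/ml for 4 h. HS+LPS cells were held at 42 °C for 1 h before the same 4 h of LPS. A group given heat alone was not analysed here, so a difference between HS+LPS and LPS cannot tell heat by itself from heat acting on the LPS response.

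The members of this family share a receptor chain. Il6st, also called gp130, is the common signalling subunit, and IL-6 and IL-11 reach it after binding their own receptors Il6ra and Il11ra1. Lif signals through Lifr paired with gp130, and oncostatin M, in the mouse, mainly through Osmr paired with gp130. The assembled receptors switch on JAK kinases and the transcription factor STAT3, and STAT3 induces its own inhibitor Socs3. Fibroblasts are a known source of Il6 and Lif in inflamed tissue, and IL-11 is known for its part in tissue repair and fibrosis. The study set out to find inflammatory genes that heat shock suppresses, as its title states.

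Signals are linear intensities scaled to an equal trimmed mean on every array, so a difference in total mRNA per cell cannot be seen, and in whole cultures fewer cells of a type and less RNA per cell cannot be told apart. Array medians were 11.9 to 14.4, the highest signals 6931 to 8434, and the brightest of 27 bacterial control probe sets, taken as the noise level, 6.0 to 7.67. The brightest probe sets of all 6 members were above that level on all 6 arrays. All 10 fibroblast markers were above noise on every array, with a summed signal of 26960 to 36780 in Control, 28600 to 32000 with LPS and 28350 to 32920 with HS+LPS. Macrophage markers summed to 226 to 316 in Control, 223 to 303 with LPS and 241 to 309 with HS+LPS. Of these 10 markers, 5 were above noise on every array and 3 at or under it on every array. Endothelial markers summed to 58.1 to 73.4, 41.0 to 94.2 and 71.5 to 103 in the same order. Of these 7 markers, 3 were above noise on every array and 3 at or under it on every array. Epithelial markers summed to 56.7 to 71.0, 54.9 to 105 and 102 to 141, with 2 of 7 above noise on every array and 1 at or under it on every array. With the culture as a block, explained below, 1 macrophage marker and 1 epithelial marker rose from LPS to HS+LPS (6.32% of all genes were called higher). In the same fit 2 fibroblast markers fell (12.6% lower), and the part of these markers in the results was not tested.

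Differences are log2 differences of intensity with 3.37 added, which understates changes of dim genes, and they were tested with limma over 12918 genes. In the fit without the culture as a block, 0 of 6 members passed an adjusted p of 0.05 in any of the 3 comparisons. Over all genes this fit called 0.147% for LPS against Control, 1.34% for HS+LPS against LPS and 0.178% for HS+LPS against Control. At an unadjusted p under 0.05 it held Il6 and Lif for LPS against Control, where 4.87% of all genes were under that limit, Il11 and Osmr for HS+LPS against LPS (16.8%), and Il6, Lif and Il11 for HS+LPS against Control (16.2%). Arrays with the same number in the sample titles were taken to come from the same culture. The culture was therefore also fitted as a block, which removes the level difference between the cultures from the error. With the replicate block 2 members rose with LPS (2.06% of all genes were called higher) and 0 fell (0.72% lower). For HS+LPS against LPS 1 rose (6.32% of all genes) and 1 fell (12.6%). For HS+LPS against Control all 3 ligands rose (5.09%) and all 3 receptors fell (12.1%). Below, for the members "rose" and "fell" refer to the fit with the block, with the adjusted p of the fit without it beside them; for other genes the text names the fit. With the block the p-values rest on how far the group differences varied between the 2 cultures. Without it they rest on the spread between the 2 cultures within each group. In both fits the variances are moderated over all genes.

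**Figure D1:**
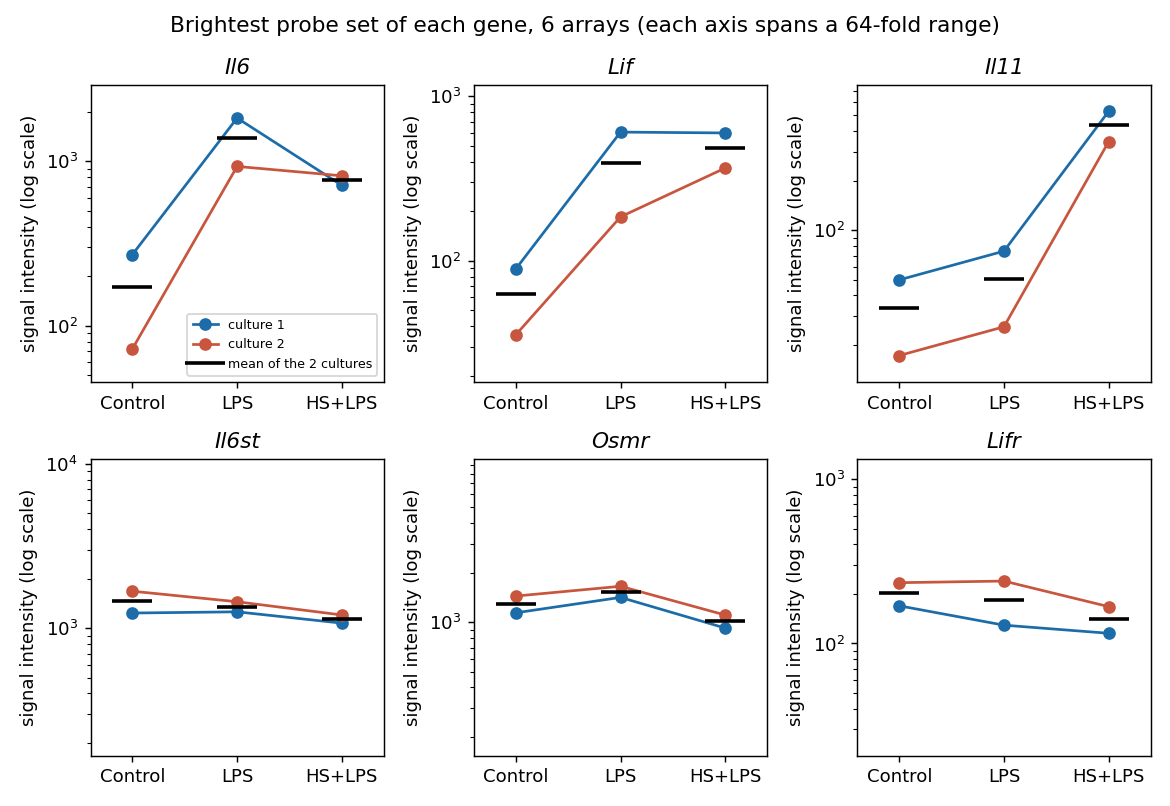
Signal intensity of the brightest probe set of each member (log axis) in Control, LPS and HS+LPS, with 1 line per culture and a bar at the mean of the 2 cultures. Il6 and Lif are higher with LPS than in Control in both cultures, Il11 lies at 17.2 to 74.4 in Control and LPS and at 344 to 527 in HS+LPS, and the lines of the receptors stayed between 115 and 1675.

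Il6, the inflammatory cytokine of the family that drives the acute phase response, rose with LPS in both cultures. It read 271 in culture 1 and 72.3 in culture 2 without stimulus, 1832 and 930.5 with LPS, and 714 and 816 with HS+LPS. Both LPS arrays lay above both HS+LPS arrays, and these above both Control arrays. The group means were 172 ± 140.5, 1381 ± 637 and 765 ± 72.3 (SD, n = 2). The LPS increase was 6.76-fold in culture 1 and 12.9-fold in culture 2 on the signals. The mean log2 difference was 3.18 (SE 0.36 with the block, adjusted p = 0.00173; SE 0.62 without it, adjusted p = 0.285), and it ranked number 13 among increases over all 12918 genes.

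Heat shock before LPS left the Il6 signal 61.0% below its LPS level in culture 1 and 12.3% below in culture 2. Counted from the Control level, 28.4% of the LPS increase remained in culture 1 and 86.7% in culture 2. The mean log2 difference of -0.77 did not pass with the block (95% interval -1.58 to 0.04, adjusted p = 0.166) or without it (adjusted p = 0.597). With the block it passed when only the LPS and HS+LPS arrays were fitted (adjusted p = 0.028). Leaving out either Control array rests this comparison on those same arrays, and the log2 difference was again -0.77. Without the HS+LPS array of culture 1 the log2 difference was 0.03 (adjusted p = 0.925), and without that of culture 2 it was -1.58 (3.91e-06). Here and below, a fit with the block that leaves out 1 array, or that holds only 2 groups, has 1 residual degree of freedom. A group left with 1 array is assumed to vary like the others. The p-values of such fits rest on little. Against Control, Il6 in HS+LPS rose 2.63-fold in culture 1 and 11.3-fold in culture 2 (mean log2 difference 2.41, SE 0.36 with the block, adjusted p = 0.00322; without it 0.15).

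Lif, leukaemia inhibitory factor, a cytokine known for holding mouse embryonic stem cells undifferentiated, rose with LPS in both cultures and did not pass for HS+LPS against LPS. Its signals were 89.3 and 35.5 in Control, 607 and 185 with LPS, and 599 and 367 with HS+LPS, in cultures 1 and 2. Both stimulated groups lay above Control and overlapped each other. The group means were 62.4 ± 38.1, 396 ± 298 and 483 ± 165 (SD, n = 2). Lif rose with LPS by 6.79-fold and 5.21-fold (mean log2 difference 2.50, SE 0.19 with the block, adjusted p = 0.000217; SE 0.65 and 0.597 without it). After heat shock the signal in culture 1 was 0.988 times its LPS level, and in culture 2 it was 1.98 times as high. That difference did not pass (log2 0.48, 95% interval with the block 0.04 to 0.92, adjusted p = 0.12; without it 0.78). It passed with the block when the HS+LPS array of culture 1 (adjusted p = 0.00042) or the LPS array of culture 1 (0.029) was left out. Against Control, Lif in HS+LPS rose 6.71-fold and 10.3-fold (log2 2.98, SE 0.19, adjusted p = 6.1e-05; without the block 0.123).

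Il11, the ligand that like IL-6 signals through paired gp130 chains, rose with heat shock plus LPS and did not pass with LPS alone. It read 49.8 and 17.2 in Control, 74.4 and 25.8 with LPS, and 527 and 344 with HS+LPS. The HS+LPS arrays stood above all others, whereas Control and LPS overlapped. The group means were 33.5 ± 23.0, 50.1 ± 34.4 and 436 ± 129 (SD, n = 2). With LPS the signal was 1.496 times Control in each culture, which did not pass (log2 0.53, 95% interval with the block 0.06 to 0.99, adjusted p = 0.26; without it 0.999). From LPS to HS+LPS Il11 rose 7.09-fold and 13.4-fold (log2 3.17, SE 0.20, adjusted p = 3.74e-05; SE 0.61 and 0.0822 without the block), number 21 among the increases of all genes. Against Control it rose 10.6-fold and 20.0-fold (log2 3.70, adjusted p = 2.4e-05; without the block 0.0813).

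The bases before the start of the 3 ligand genes are shown because all 3 rose in HS+LPS against Control, while they differed in the other comparisons. The sequences are RefSeq promoter windows of build GRCm38.p6, 250 bases that end just before an annotated start, 5′ to 3′ on the gene's strand. Capitals mark matches to the motifs searched on both strands. Il6 lies on the + strand at chr5:30012864-30013113, Lif on the + strand at chr11:4257318-4257567, and Il11 on the - strand at chr7:4778142-4778391. Il11 has another annotated start, with its window at chr7:4782858-4783107, which held none of the motifs and is not printed.
Il6: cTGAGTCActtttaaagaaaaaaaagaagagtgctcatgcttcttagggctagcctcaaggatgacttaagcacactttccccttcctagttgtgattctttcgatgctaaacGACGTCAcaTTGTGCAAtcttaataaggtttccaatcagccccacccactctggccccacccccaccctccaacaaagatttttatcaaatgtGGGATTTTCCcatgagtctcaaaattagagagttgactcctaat
Lif: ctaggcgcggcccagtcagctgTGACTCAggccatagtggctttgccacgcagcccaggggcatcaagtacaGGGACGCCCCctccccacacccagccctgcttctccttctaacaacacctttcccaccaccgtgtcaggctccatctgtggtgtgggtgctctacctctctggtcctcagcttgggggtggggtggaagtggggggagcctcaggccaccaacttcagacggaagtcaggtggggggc
Il11: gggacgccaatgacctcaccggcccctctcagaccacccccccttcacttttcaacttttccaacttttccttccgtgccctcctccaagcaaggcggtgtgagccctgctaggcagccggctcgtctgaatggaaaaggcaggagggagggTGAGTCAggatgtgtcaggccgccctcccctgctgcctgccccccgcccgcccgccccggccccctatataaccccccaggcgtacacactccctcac

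The motif TGANTCA, the letters of AP-1 sites, was found in 3 of the 8 member windows. These were the 3 printed ones, and the other Il11 window did not hold it. Its first base lay 249 bases before the start in Il6, 228 in Lif and 98 in Il11, and 6.75% of 32851 promoter windows of this length hold it. The NF-kB consensus was found 44 bases before the start in Il6 and 178 in Lif (7.25% of windows). Il6 also held the CRE letters TGACGTC on the opposite strand (2.78% of windows) and the C/EBP letters TTNNGNAA (36.8%), at 137 and 128 bases before the start. The heat shock element pair GAANNTTC was found in Il6st, 228 bases before its start (6.69% of windows), and in no window of the other members. The STAT letters TTCNNNGAA (7.02%) and TATAAA (12.4%) were in none of the 8 member windows, and the windows of Osmr and Lifr held no match to any motif. No matches of different motifs overlapped. A match shows letters and not a bound factor.

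Among the receptor chains, Il6st, the shared chain, read 1234 and 1675 in Control, 1255 and 1445 with LPS, and 1071 and 1201 with HS+LPS. Control and LPS overlapped, and both HS+LPS arrays lay below them. The group means were 1454 ± 312, 1350 ± 135 and 1136 ± 92.3 (SD, n = 2). With LPS its log2 difference was -0.09 (95% interval with the block -0.29 to 0.10, adjusted p = 0.666; without it 0.999), with 0.02 in culture 1 and -0.21 in culture 2. From LPS to HS+LPS it was -0.25, with adjusted p = 0.0769 with the block and 0.543 without. With the block it passed with only the 2 groups fitted (adjusted p = 0.0455) and after quantile normalization (0.0225), and did not pass after median centring (0.366). Leaving out either Control array rests this comparison on the same arrays as the fit of 2 groups, and the difference was again -0.25. Against Control Il6st fell in HS+LPS (log2 -0.34, SE 0.09, adjusted p = 0.0272; 0.41 without the block).

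Osmr, the signalling chain for oncostatin M, fell from LPS to HS+LPS, the only member besides Il11 that passed there with the block. Its signals were 1138 and 1439 in Control, 1412 and 1650 with LPS, and 919 and 1103 with HS+LPS. Both HS+LPS arrays lay below the others, and Control and LPS overlapped. The group means were 1289 ± 213, 1531 ± 169 and 1011 ± 130 (SD, n = 2). With LPS the difference was 0.25 (95% interval with the block 0.09 to 0.42, adjusted p = 0.128; without it 0.999), and it passed after quantile normalization with the block (0.0471). From LPS to HS+LPS Osmr was 34.9% lower in culture 1 and 33.2% lower in culture 2 (log2 -0.60, SE 0.07, adjusted p = 0.00093 with the block, SE 0.17 and 0.167 without it). Of all genes, 11.3% had a lower log2 difference there. Against Control it fell by 0.35 on the log2 scale (adjusted p = 0.0137; 0.39 without the block).

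Lifr, the chain that pairs with gp130 for Lif, read 169 and 234 in Control, 129 and 239.6 with LPS, and 115 and 168 with HS+LPS. Control and LPS overlapped, as did LPS and HS+LPS, and both HS+LPS arrays lay below Control. The group means were 202 ± 45.8, 184 ± 78.1 and 141 ± 36.9 (SD, n = 2). Its difference with LPS was -0.17 (95% interval with the block -0.47 to 0.12, adjusted p = 0.57; without it 0.999) and from LPS to HS+LPS -0.33 (-0.63 to -0.04, adjusted p = 0.103; without it 0.697). Against Control Lifr fell in HS+LPS (log2 -0.51, SE 0.13, adjusted p = 0.0279; 0.553 without the block), by 31.9% in culture 1 and 28.5% in culture 2. Among the fibroblast markers, Pdgfrb, a platelet-derived growth factor receptor, fell from LPS to HS+LPS without the block (log2 -0.81, adjusted p = 0.0277), and Pdgfra, its relative, fell with the block alone (log2 -0.96, adjusted p = 0.00729; without it 0.74). The other 8 of 10 fibroblast markers did not pass with or without the block, and the median over the list was 0.04. Both named markers were chosen after their values were seen, and their part in the receptor values was not tested.

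**Figure D2:**
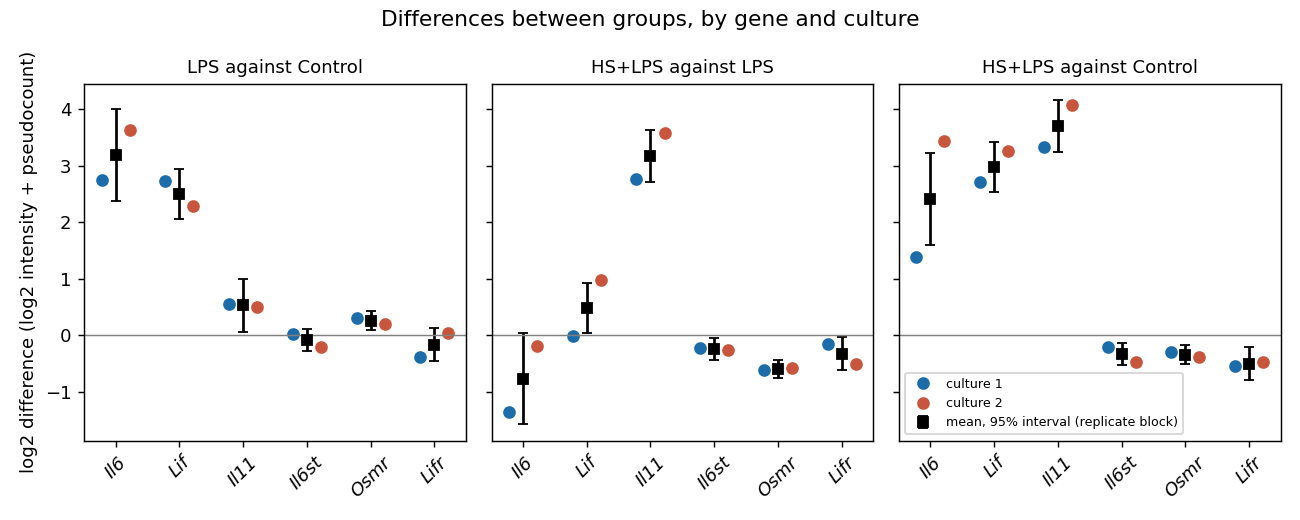
Log2 difference of each member in the 3 comparisons: circles are the 2 cultures, squares their mean, and bars the 95% interval from the limma fit with the replicate block. The ligands lie at 2.41 to 3.70 for HS+LPS against Control, and the receptors at -0.51 to -0.34.

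The receptor calls against Control depended on the scaling and on single arrays. Centring each array on its median raised the median difference of all genes by 0.128 for HS+LPS against LPS and by 0.124 for HS+LPS against Control, and with the block the adjusted p for HS+LPS against Control became 0.129 for Il6st, 0.0779 for Osmr and 0.0701 for Lifr. Quantile normalization with the block gave log2 differences of -0.41 for Il6st (adjusted p = 0.0113) and -0.42 for Osmr (0.00411), which passed, and -0.43 for Lifr (0.0634), which did not. Relative to the median of all genes for HS+LPS against Control, the 3 receptors stood at -0.25, -0.25 and -0.41. Of all genes, 25.9% had a lower difference than Il6st, 25.4% than Osmr and 15.1% than Lifr in that comparison. Leaving out the Control array of culture 2 gave adjusted p of 0.265, 0.124 and 0.10 in the same order, and leaving out the HS+LPS array of culture 2 gave 0.166, 0.0578 and 0.0672; Lifr also did not pass without the Control array of culture 1 (0.244). The Osmr decrease from LPS to HS+LPS kept its call under median centring (0.00378) and in each fit that left out 1 array. Without the intensity trend in the variance estimate, the block fit gave 0.0596 for that decrease and 0.0317 for Il11. The same fit gave 0.179 and 0.105 for Il6 and Lif with LPS, and for HS+LPS against Control 0.0881, 0.0568 and 0.0525 for Il6, Lif and Il11.

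The other probe sets of the members gave a check of these values. Lif had a dimmer probe set at 18.8 and 16.05 in Control, 58.5 and 31.8 with LPS, and 44.0 and 52.1 with HS+LPS. Its log2 difference with LPS was 1.17, where the brighter one gave 2.50, and with HS+LPS against LPS 0.14. For HS+LPS against Control it was 1.305, where the brighter one gave 2.98. All 4 Il6st probe sets were lower in HS+LPS than in LPS, at log2 differences of -0.36 to -0.19. The 2 bright Osmr probe sets gave -0.60 and -0.77 for HS+LPS against LPS, and the third was above noise on only 3 arrays. The 2 dim Lifr probe sets, one of them above noise on 5 arrays, gave 0.29 and -0.77 with LPS against -0.17 for the bright one, and -0.37 and 0.63 after heat against -0.33, so the Lifr values rest on 1 probe set. When log2 signals of all probe sets of a gene were averaged, Lifr for HS+LPS against Control had an adjusted p of 0.41 with the block and Il6st of 0.0523. Il6 and Il11 had 1 probe set each.

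**Figure D3:**
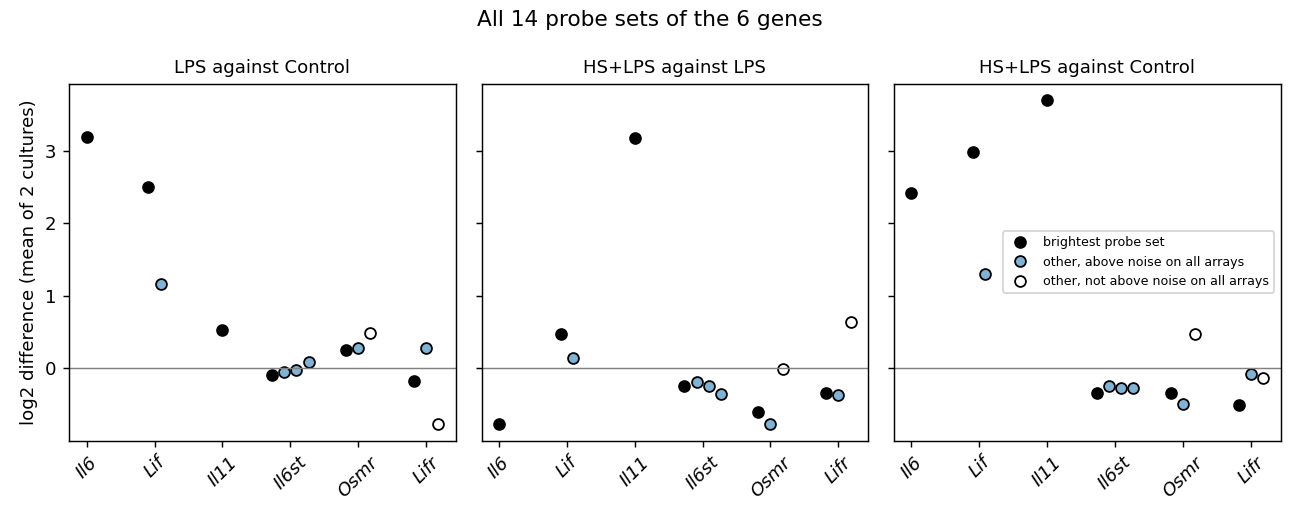
Log2 difference of all 14 probe sets of the 6 genes in the 3 comparisons (mean of 2 cultures); black points are the brightest probe set, blue ones others above noise on all arrays, and white ones those that were not. The 4 Il6st points lie close together, and the dim probe sets of Lifr spread on both sides of 0 for LPS against Control.

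In most groups the ligands read higher in culture 1 and the receptors higher in culture 2. The Il6 signal was 3.75 times as high in culture 1 as in culture 2 in Control and 1.97 times with LPS, and 0.875 times with HS+LPS. Lif was 2.52, 3.28 and 1.64 times as high in culture 1 in the same order, and Il11 2.88, 2.88 and 1.53 times. The receptors were higher in culture 2 in all 3 groups: 1.12 to 1.36 times for Il6st, 1.17 to 1.26 times for Osmr and 1.38 to 1.85 times for Lifr. Fibroblast markers differed between the cultures too. In Control, Lum read 119 in culture 1 and 1699 in culture 2, Dcn 333 and 1862, and Pdgfra 302 and 1036. Pdgfrb (1554 and 1475) and Fn1 (5385 and 5217) read higher in culture 1 there. These are values of 2 cultures, and neither the differences nor a link between them was tested.

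Among the other ligands of the family Clcf1 rose with heat shock plus LPS. Of 9 other ligands listed, 5 had a probe set with that single symbol and 3 were tested. Clcf1, cardiotrophin-like cytokine factor, a ligand of the ciliary neurotrophic factor receptor, read 83.4 and 41.1 in Control, 71.4 and 38.6 with LPS and 155 and 127 with HS+LPS. It rose from LPS to HS+LPS (log2 1.36, adjusted p = 0.00192 with the block, 0.184 without) and from Control to HS+LPS (log2 1.21, adjusted p = 0.00391 with the block, 0.23 without), and did not pass with LPS (log2 -0.15, adjusted p = 0.772 with the block). Osm, oncostatin M, the ligand of Osmr, was at 3.11 to 16.7 and above noise on only 3 of 6 arrays; none of its differences passed (adjusted p with the block 0.461, 0.059 and 0.382). Cntf was not analysed here.

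Of 8 other receptors, 6 had such a probe set and 3 were tested, and limma called 0 in any comparison, with or without the block. With the block it called 2.06%, 6.32% and 5.09% of all genes higher in the 3 comparisons, and 0.72%, 12.6% and 12.1% lower. Without it the shares in either direction were 0.147%, 1.34% and 0.178%. The median log2 differences of the 3 receptors were 0.27, 0.41 and 0.68, against -0.05, -0.05 and -0.09 for all genes. Il6ra, the IL-6 binding chain, read 17.0 and 11.5 in Control, 14.3 and 18.3 with LPS and 21.0 and 32.4 with HS+LPS, and its adjusted p with the block was 0.86, 0.232 and 0.142 for the 3 comparisons. Cntfr, the binding chain for ciliary neurotrophic factor, read 6.79 to 18.5. Il11ra1 was not analysed here.

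Of 23 listed genes of JAK-STAT signalling and its feedback, downstream of the receptors, 21 were tested. With LPS 2 rose with the block (2.06% of all genes were called higher) and 0 passed without it (median log2 difference 0.00, against -0.05 for all genes). From LPS to HS+LPS 3 rose and 6 fell with the block (6.32% and 12.6% of all genes, median -0.12, against -0.05). Without it 1 rose and 1 fell (1.34% of all genes in either direction). The one that rose was Cish, a feedback inhibitor of cytokine receptors, from 97.7 and 74.3 to 233 and 270 (2.87-fold, adjusted p = 0.0296 without the block). The one that fell was Sos1, an exchange factor that links receptors to Ras (log2 -1.07, adjusted p = 0.0319 without the block). Against Control 2 rose and 5 fell with the block (5.09% and 12.1% of all genes) and 0 passed without it (median -0.07, against -0.09).

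Stat3 was lower and Socs3 higher in HS+LPS than in one of the other groups. Jak1, a kinase bound to gp130, read 1270 to 1472 over the 6 arrays and its adjusted p with the block was 0.537, 0.429 and 0.905. Stat3 went from 1165 and 1251 in Control to 1094 and 1104 with LPS and 909.5 and 973 with HS+LPS. It fell from Control to HS+LPS (log2 -0.36, adjusted p = 0.0119 with the block, 0.179 without). Socs3, the inhibitor that STAT3 induces and that acts on gp130, read 363 and 801 in Control, 220.3 and 693 with LPS and 499.7 and 932 with HS+LPS. Culture 2 was higher in every group. With LPS its difference was -0.46, which did not pass (adjusted p = 0.181 with the block), and from LPS to HS+LPS it rose (log2 0.80, adjusted p = 0.00811 with the block, 0.598 without).

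Of 24 genes listed as STAT3 targets 22 were tested. With LPS 7 rose and 0 fell with the block (2.06% and 0.72% of all genes, median 0.43, against -0.05 for all genes). From LPS to HS+LPS 4 rose and 8 fell with the block (6.32% and 12.6% of all genes, median -0.09, against -0.05). Several of these genes also answer to NF-kB. Without the block Icam1, an adhesion molecule, rose with LPS (5.39-fold, adjusted p = 0.0197). From LPS to HS+LPS Icam1 (log2 -3.14, adjusted p = 0.00412) and Lcn2, the iron-binding protein lipocalin 2 (log2 -1.83, adjusted p = 0.0494), fell without the block. Junb, an AP-1 subunit, rose 3.12-fold (adjusted p = 0.0199 without the block), from 234 and 204 to 611 and 773. Against Control 5 rose and 3 fell with the block (5.09% and 12.1% of all genes, median 0.08, against -0.09). Without the block the counts were 1 and 0, 1 and 2, and 1 and 0 (0.147%, 1.34% and 0.178% of all genes in either direction).

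Of 21 listed regulators of Il6 transcription and of Il6 mRNA decay, 19 were tested. With LPS 6 rose and 0 fell with the block (2.06% and 0.72% of all genes, median 0.18). From LPS to HS+LPS 8 rose and 3 fell with the block (6.32% and 12.6% of all genes, median 0.29). Against Control 13 rose and 2 fell with the block (5.09% and 12.1% of all genes, median 0.60, against -0.09 for all genes). Without the block 2, 3 and 4 rose and 0 fell (0.147%, 1.34% and 0.178% of all genes in either direction). Atf3, a transcription factor of the ATF/CREB family known as a repressor of Il6, read 25.9 and 31.7 in Control, 22.3 and 34.7 with LPS, and 2071 and 2093 with HS+LPS (66.7-fold over LPS, adjusted p = 0.000605 without the block). Nfkbiz, a nuclear cofactor that NF-kB needs at the Il6 promoter, rose 2.81-fold with LPS (adjusted p = 0.0145 without the block) and a further 1.78-fold from LPS to HS+LPS (0.0302 without the block). Zc3h12a, the RNase Regnase-1 that degrades Il6 mRNA, rose 7.76-fold with LPS (adjusted p = 0.00593 without the block) and read 322 and 365 with HS+LPS against 411 and 364 with LPS. Of the 5 lists, 4 genes stood in 2 of them (Cebpb, Cebpd, Junb and Socs3).

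**Figure D4:**
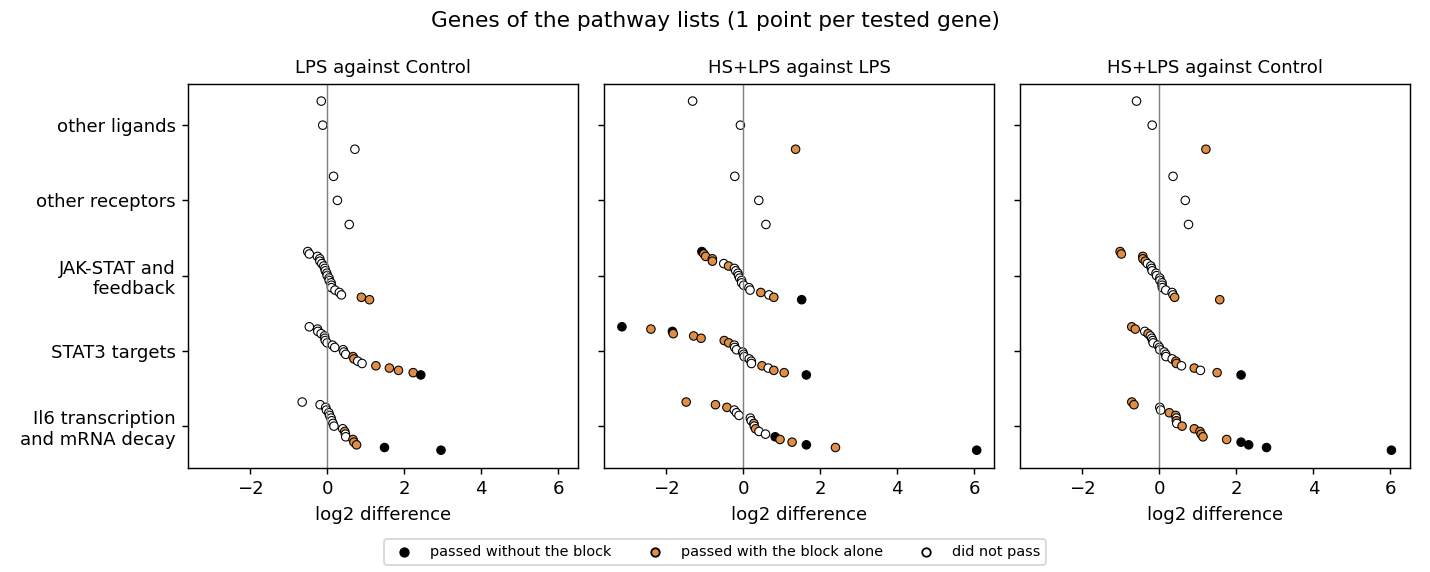
Log2 difference of each tested gene in the 5 pathway lists (rows) for the 3 comparisons; black points passed limma without the block, orange ones with the block alone, and white ones did not pass. Atf3 is the point at 6.06 for HS+LPS against LPS, and the other receptors hold 3 white points in every panel.

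Genes with the pattern most like each member were ranked by Pearson r of log2 signal over the 6 arrays, among genes whose log2 SD over the arrays was at least 0.5; the arrays share 2 cultures and 3 groups, and r is a description. For Il6 they were Il15ra, the IL-15 receptor chain (r = 0.974), Ccno (0.964, at 1.12 to 13.0 partly below noise) and Sec14l3 (0.961). All 3 were below or near noise in Control, where Il15ra read 12.6 and 1.48 and Sec14l3 10.4 and 1.48. For Lif they were Rgs16, a regulator of G protein signalling (0.981), the growth factor Ereg (0.975) and Sema7a (0.972). Il11 was closest to Hspa4l, a heat shock protein of the HSP110 family (0.996), the phosphate transporter Slc20a1 (0.993) and Phlda1 (0.99). Osmr was closest to A630072M18Rik (0.996), Fmnl2 (0.989) and the interferon regulatory factor Irf1 (0.976). Il6st was closest to Boc, Adamts3 and N4bp2 (0.975 to 0.978) and Lifr to Add3, Nnmt and Armcx6 (0.988 to 0.99). The receptors' own log2 SD was 0.226 for Il6st, 0.309 for Osmr and 0.42 for Lifr, under the limit of 0.5. Genes that varied as little as these were therefore not ranked, and the named ones had the highest r of 2371 candidates. Among the members themselves Il6 and Lif correlated at 0.91, Lif and Il11 at 0.76, and Il6 and Il11 at 0.47. The 3 receptors correlated with each other at 0.71 to 0.87.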

How the data were processed

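Total RNA of 6 samples was biotin-labelled by in vitro transcription with Affymetrix reagents, per the labels, and measured on Affymetrix arrays. The authors deposited 1 linear signal intensity per probe set and array, 45101 in all; the software that made them is not given in the sources used here. Gene names came from the platform annotation: 34958 probe sets had 1 symbol, 932 several and 9211 none listed. The 25th percentile of the table, 3.37, was added to each intensity before taking log2. A filter at the 40th percentile of the mean log2 signal retained 27024 probe sets (23627 with 1 symbol), and the brightest for each gene made 12918 genes. Of the 14 member probe sets 13 passed.

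The test was limma 3.58.1 (R 4.3.3), with moderated variances that follow the signal level. All 3 groups shared 1 model, which left 3 residual degrees of freedom, or 2 with the culture as a replicate block, at a Benjamini-Hochberg adjusted p under 0.05. Each number in the sample titles was read as marking 1 culture, and this reading pairs the arrays. Deviations from group means correlated between same-numbered arrays at 0.62, 0.57 and 0.54. Only the fit without the block was tested on simulated data, in which arrays of the same culture did not vary together. There it recovered 24.6% to 28.0% of genes changed by 1 log2 unit, and 80.3% to 88.4% of those changed by 3. The named genes were the 6 members, fixed names from 5 pathway lists, list genes called without the block, and the 3 genes of most like pattern per member. Of 81 list genes, 10 had no probe set of that single symbol and were not analysed here. The members and lists were chosen with earlier results of these data known. Tables, promoter searches and figures were made with Python 3.11.15.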

Additional observations from a re-analysis of the deposited data

How the results depend on the processing

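Without the block, 0 members passed in all 3 comparisons under every other pseudocount, filter, scaling, probe set rule, variance prior and choice of arrays tried. With the replicate block 2, 2 and 6 members passed for LPS against Control, HS+LPS against LPS and HS+LPS against Control. Block fits with a further choice were added after the data were seen. In these, removing the intensity trend gave 0, 1 and 0 members, and median centring gave 3 for HS+LPS against Control. Fitting only LPS and HS+LPS gave 4 for that comparison, with 1 residual degree of freedom. Leaving out a Control array rests that comparison on the same arrays. The share of all genes called in these fits, and in those below that leave out 1 array, is not given here. Their member counts therefore show how far the calls moved and are no result about the members. Leaving out 1 array at a time gave 2 to 4 members for HS+LPS against LPS and 3 to 6 for HS+LPS against Control; for LPS against Control it was 2 each time. Of the members' log2 differences under the alternatives without the block, 262 kept direction and call and 8 turned sign, all 8 on leaving out 1 array and none past the threshold. The leave-one-out ranges of those results were -0.18 to 1.23 (Il11), -0.31 to 0.13 (Il6st) and -0.61 to 0.26 (Lifr) for LPS against Control, and -0.37 to 1.33 (Lif) and -0.77 to 0.10 (Lifr) for HS+LPS against LPS. These fits ignore the pairing of the cultures. Leaving out 1 array with the block, the differences ranged from 0.31 to 0.74 (Il11), -0.22 to 0.03 (Il6st) and -0.37 to 0.02 (Lifr) for LPS against Control, and from 0.09 to 0.86 (Lif) and -0.52 to -0.14 (Lifr) for HS+LPS against LPS, so that Il11, Lif and the latter of Lifr kept their sign. Over all genes the calls were 19, 173 and 23 in the 3 comparisons and 0 to 24, 8 to 200 and 8 to 58 under alternatives without the block, against 359, 2443 and 2219 with it. The 2 cultures limit the precision.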
